A study of Mus musculus with 4 samples.

Results

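Cycling insulin-producing beta cells of the mouse pancreatic islet are described here as 546 cells in 4 single-cell libraries. They were taken from 6566 cells with 500 counts or more, 250 detected genes or more, and mitochondrially encoded genes at no more than 25% of counts. Of those, 2938 held the 2 insulin transcripts Ins1 and Ins2 at 1% of their counts or more, with glucagon (Gcg) and somatostatin (Sst) each under 1% and pancreatic polypeptide (Ppy) under 0.5%, and are called insulin-gated. A gated cell was called cycling when it held at least 4 counts summed over 8 cell-cycle genes, Mki67, Top2a, Ube2c, Ccnb1, Ccna2, Cdk1, Pbk and Rrm2. They are set against the 2126 gated cells with 0 or 1 such counts, called non-cycling, and the 266 gated cells with 2 or 3 such counts entered neither side.

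The study profiled viable single cells dissociated from islets, encapsulated with the inDrop droplet platform and amplified by CEL-Seq, which counts tags near the 3′ ends of transcripts. It compared 2 libraries from islets labelled Sin3A mutant with 2 labelled WT, described as biological replicates. A mutant and a WT library share each number in the titles, and the pairs are called A and B. The sources used here name neither the allele, the cells in which it acts, the age and sex of the mice nor any pooling of animals, so p-values measure only the spread between these libraries. Where 4 values stand in a row they belong to mutant A, mutant B, WT A and WT B.

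The libraries held 9282495, 12236110, 12835199 and 10350699 counts. They yielded 124, 172, 136 and 114 cycling cells against 481, 630, 397 and 618 non-cycling cells. Of 6807 distinct barcode sequences, 140 occurred in more than 1 library. Scrublet, a doublet caller, marked 40 of the 6566 cells, among them 4 cycling and 12 non-cycling cells, and no cell was removed for it. Cycling cells were deeper, with a median of 11684, 7949, 14247 and 8770 counts, against 8494, 5998, 12320 and 5904 in non-cycling cells. A threshold on counts admits deeper cells more readily, so the comparison was repeated with non-cycling cells matched in depth, and list counts that moved by over 1.5 times under it are given with their list.

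Beta cells make and secrete insulin, and in the adult islet few of them divide, whereas islets of young animals hold more dividing cells. A cell entering the cycle first copies its DNA, with genes driven by E2F factors that the retinoblastoma family holds back. It then builds the spindle, kinetochores and condensed chromosomes of mitosis, with genes driven by the MuvB complex together with B-Myb (Mybl2) and Foxm1. The insulin genes, Slc2a2, G6pc2 and Ucn3 are known as marks of mature beta cells.

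The rule itself fixes insulin and the 8 cycle genes, so these describe the cells and do not check their label. Ins1 was found in every cycling cell of the 4 libraries. Top2a, the topoisomerase that untangles chromosomes, had at least 1 count in 80.6%, 76.2%, 75.7% and 83.3% of cycling cells, against 6.24%, 7.14%, 4.53% and 7.77% of non-cycling cells. Mki67, the source of the Ki-67 antigen, had at least 1 count in 75.0%, 59.3%, 78.7% and 71.1% of cycling cells, against 1.87%, 1.27%, 2.77% and 2.91% of non-cycling cells. Iapp, Slc30a8, Pdx1, Nkx6-1, Slc2a2, G6pc2 and Ucn3, which the rule did not use, were detected in the cycling cells of all 4 libraries. Of the 10 beta cell markers, Ins1 and Ins2 among them, all were detected in the cycling cells of mutant A. In those of the other libraries 9 were, with Mafa at 0. Mafa was at 0 in the non-cycling cells of mutant B as well. Detected here means at least 1 count in the sum over cells. All 6 endothelial, 9 mesenchymal and 5 alpha cell markers were likewise detected in the cycling cells of every library. Detection alone thus does not check the label.

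These 8 genes and the hormone genes chose the cells, so their levels are a description and were not tested. Levels are given as counts per 1000000 counts of the cells summed (CPM). Ube2c, the ubiquitin carrier of the anaphase promoting complex, reached 309, 661, 553 and 465 CPM in cycling cells, against 5.57, 8.30, 5.94 and 6.24 CPM in non-cycling cells. Rrm2, the ribonucleotide reductase subunit that supplies DNA precursors, reached 183, 323, 339 and 198 CPM in cycling cells, against 4.31, 7.04, 4.92 and 3.53 CPM in non-cycling cells. Ins1 itself stood at 153839, 21758, 75162 and 37923 CPM in cycling cells, against 176134, 18584, 82653 and 40258 CPM in non-cycling cells. Insulin transcript levels thus differed far more between libraries than between the states within a library. Ins1 and Ins2 together took a median of 26.5%, 4.49%, 14.1% and 7.69% of counts in cycling cells. In non-cycling cells the medians were 29.6%, 3.26%, 14.8% and 8.01%. Mutant B thus lay nearest the gate of 1%, and a gate at 3% kept 515 of its 878 gated cells. In mutant A, WT A and WT B that gate kept 659 of 665, 587 of 600 and 789 of 795.

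The promoters of 4 of the 8 genes are shown because they carry the elements named above in different combinations. RefSeq promoters of GRCm38.p6 matched 6 of the 8 genes, and the 250 bases before the start are printed 5′ to 3′ on the strand of the gene. Capitals mark 3 kinds of element, read on both strands. They are the cell cycle homology region (CHR, TTTGAA or TTCGAA), the CCAAT box, and a strict form of the E2F element (TTTCCCGC, TTTGGCGC, TTTCGCGC or TTTGCCGC). The 4 windows are chr11:99024190-99024439 on the minus strand, chr2:164769679-164769928 on the plus strand, chr10:69352913-69353162 on the minus strand and chr12:24708004-24708253 on the plus strand.
Top2a: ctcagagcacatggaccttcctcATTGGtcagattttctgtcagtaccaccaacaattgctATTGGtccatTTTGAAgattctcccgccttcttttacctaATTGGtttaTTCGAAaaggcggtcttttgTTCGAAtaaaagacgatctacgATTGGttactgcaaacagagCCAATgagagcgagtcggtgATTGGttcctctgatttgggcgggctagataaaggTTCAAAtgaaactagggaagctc
Ube2c: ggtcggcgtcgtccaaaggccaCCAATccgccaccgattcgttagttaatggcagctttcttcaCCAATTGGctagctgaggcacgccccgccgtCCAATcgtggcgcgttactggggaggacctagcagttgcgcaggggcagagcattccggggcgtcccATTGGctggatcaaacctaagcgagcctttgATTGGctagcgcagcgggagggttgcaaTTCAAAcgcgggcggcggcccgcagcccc
Cdk1: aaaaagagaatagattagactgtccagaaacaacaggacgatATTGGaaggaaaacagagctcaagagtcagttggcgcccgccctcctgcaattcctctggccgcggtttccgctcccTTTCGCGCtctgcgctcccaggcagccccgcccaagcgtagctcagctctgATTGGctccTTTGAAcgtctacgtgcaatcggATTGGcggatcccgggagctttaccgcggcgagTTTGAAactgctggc
Rrm2: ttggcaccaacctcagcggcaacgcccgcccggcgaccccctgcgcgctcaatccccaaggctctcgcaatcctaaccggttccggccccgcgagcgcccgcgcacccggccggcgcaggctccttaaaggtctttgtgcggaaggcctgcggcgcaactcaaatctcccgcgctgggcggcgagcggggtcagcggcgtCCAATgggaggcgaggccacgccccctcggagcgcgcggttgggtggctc
The Top2a promoter held 4 CHR letters and 6 CCAAT boxes, and the CHR nearest the start began 23 bases before it. Ube2c held 1 CHR, 29 bases before the start, and 6 CCAAT boxes, of which a forward and a reverse copy overlap. Cdk1, the mitotic kinase, held 2 CHR, 3 CCAAT boxes and 1 E2F element. Rrm2 held 1 CCAAT box and neither of the other kinds in these letters.

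The counts over the 8 genes fell off steeply and then spread to high values. Of the gated cells, 360, 448, 279 and 457 had none, while 72, 96, 89 and 61 had 15 or more. Just outside the threshold, 15, 22, 22 and 23 cells held exactly 3 counts, and just inside it 13, 18, 12 and 10 cells held exactly 4. Over all libraries 184 gated cells held exactly 2 counts, 82 exactly 3 and 53 exactly 4. The threshold thus lay on a falling slope without a gap.

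**Figure D1:**
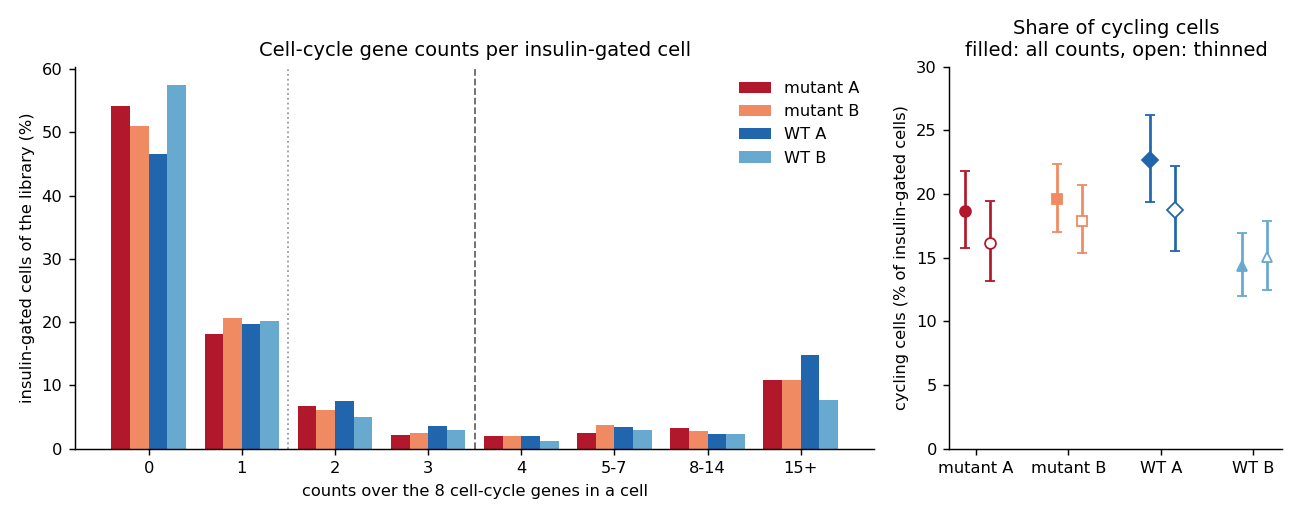
Left, percentage of insulin-gated cells of each library (vertical axis) by the counts a cell held over the 8 cell-cycle genes (horizontal axis), with the threshold of 4 as a dashed line and the upper limit of non-cycling cells as a dotted line. Right, cycling cells as a percentage of insulin-gated cells with exact 95% binomial intervals, from all counts (filled) and after thinning each cell to 2000 counts (open); the shares from all counts ran from 14.3% to 22.7%.

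Genes the rule did not use followed the counts of those it did. The sums were taken over the 58 genes of a G1/S and DNA replication list and over 109 genes of 4 lists for mitosis (kinases and G2/M entry, kinetochore, spindle, and anaphase promoting complex). The mitotic sum was 12709.6, 17756, 15321 and 19989 CPM in cells with 15 or more cycle counts, against 2140.3, 3783, 2879 and 2673 CPM in cells with none. In cells with exactly 4 counts it was 3974, 7694, 4412 and 8460.0 CPM, against 3578, 4829, 3354 and 4021 CPM in cells with exactly 3. The step across the threshold was small in mutant A and larger in both B libraries. Depth changed across it as well. Cells with exactly 4 cycle counts had a median of 9943, 3234, 11832 and 2787 total counts. Those with exactly 3 had 11548, 7666, 14060 and 5775. The part of depth in the step was not tested.

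The replication sum took another course. It was highest at 8 to 14 cycle counts in mutant A and WT B, with 5328 and 5173 CPM, and lower again at 15 or more, with 4069 and 3737 CPM. In mutant B and WT A it was highest at 15 or more, with 5176 and 4969.9 CPM. Cells without any cycle count held 965, 814, 779 and 882 CPM of it.

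**Figure D2:**
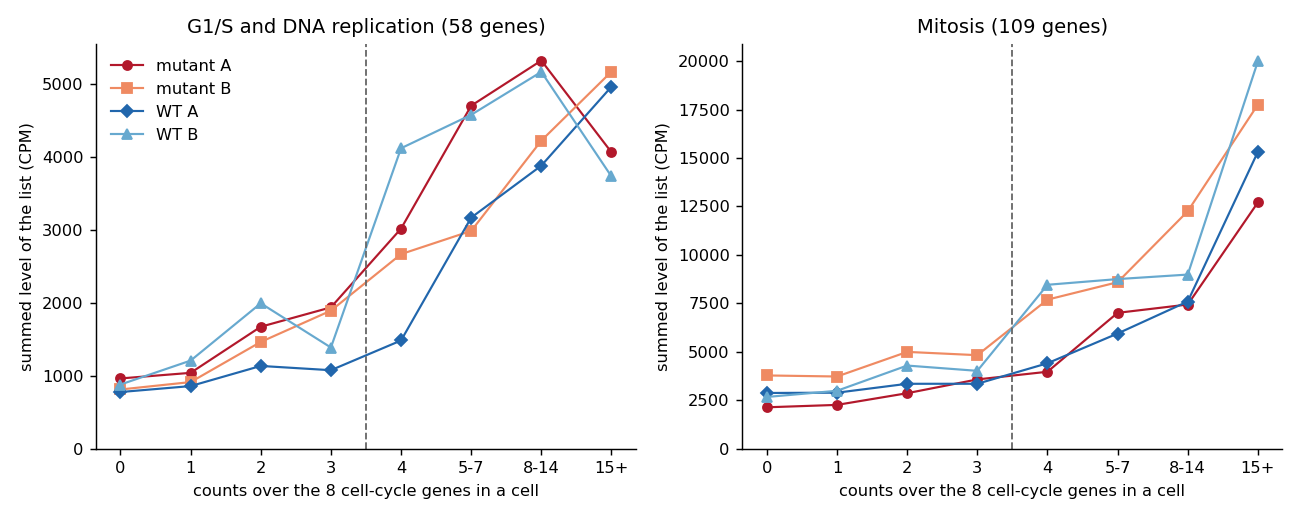
Summed levels in CPM (vertical axes, from 0) of the replication list and of the 4 mitotic lists in insulin-gated cells grouped by their counts over the 8 cell-cycle genes (horizontal axes), 1 line per library, with the threshold of 4 as a dashed line. The mitotic sum was highest in cells with 15 or more counts in every library, whereas the replication sum was lower there than at 8 to 14 counts in mutant A and WT B.

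Counts were then summed per library over cycling and over non-cycling cells, and the 2 states were compared within libraries with edgeR's quasi-likelihood test, with the library as a block. Of 12646 genes tested, 1369 (10.8%) were called higher in cycling cells and 1097 (8.67%) lower, at a Benjamini-Hochberg adjusted p under 0.05. Of the 2466 called genes (19.5%), 2311 had the same sign in all 4 libraries. The rise was the steeper side, with 580 genes more than 2-fold higher and 39 more than 2-fold lower, and the median log2 difference over all genes was -0.04. Without WT A 624 genes were called lower, and DESeq2 called 879 higher and 625 lower. With no filter on low counts, 1029 of 31196 genes were called higher and 2114 lower around a median of -0.19. Of the 133 genes more than 8-fold higher, 88 belonged to the 6 lists of cell division genes. The other division genes follow the 8 used for the choice, so their rise describes the chosen cells and is no separate evidence that they divide.

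Genes of G2/M entry and mitosis rose most. In each library every gene of the rule except Rrm2 was lower in the cycling cells with the larger share of replication transcripts. The order of the lists is thus tied to the rule and was not tested. All 27 kinases, phosphatases and factors of G2/M entry were called higher, with a median log2 difference of 3.88. Of the kinetochore list 28 of 30 were, with a median of 3.48, and of the spindle, motor and cytokinesis list all 35, with a median of 3.46. Zwint and Skap2 did not pass, and Skap2, although listed, is not a kinetochore gene. Zwint, a kinetochore protein that also occurs in neurons, stood at 111, 274, 132 and 231 CPM in cycling cells, against 92.9, 226, 127 and 193 CPM in non-cycling cells.

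Ckap2l, which sits on spindle microtubules, had the largest difference of the genes named by size. It stood at 64.6, 129, 76.8 and 159 CPM in cycling cells, against 1.52, 1.76, 0.410 and 2.17 CPM in non-cycling cells, a log2 difference of 6.16 ± 0.21 (SE; edgeR adjusted p = 1.14e-16). The groups did not overlap, and the lowest cycling value lay far above the highest non-cycling one. Nusap1, a microtubule bundler, stood at 91.3, 116, 124 and 115 CPM in cycling cells, against 2.03, 2.26, 2.05 and 2.71 CPM in non-cycling cells, and differed by 5.59 ± 0.17 on the log2 scale. Birc5 and Cdca8, subunits of the chromosomal passenger complex that corrects attachments to the spindle, differed by 5.50 ± 0.17 and 5.07 ± 0.16.

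The levels of Cdca8 in cycling cells were 123, 251, 143 and 321 CPM, against 5.82, 6.79, 5.32 and 5.15 CPM in non-cycling cells. Both B libraries thus stood above both A libraries, and the same order held for Ckap2l, for the kinase Plk1 (61.3, 159, 83.4 and 182 CPM in cycling cells, against 2.53, 4.02, 3.07 and 5.97 CPM in non-cycling cells) and for the mitotic cyclin Ccnb2 (121, 387, 134 and 393 CPM in cycling cells, against 5.06, 15.8, 2.66 and 18.7 CPM in non-cycling cells). The kinase Nek2, which separates centrosomes, was more even, with 147, 158, 151 and 176 CPM in cycling cells, against 7.09, 5.53, 8.19 and 5.97 CPM in non-cycling cells. The other genes among the 12 largest were Melk, Kif23, Ska1, Cdc20, Tpx2, Hmmr and Kif11, with log2 differences from 4.93 to 5.40. The transcription factors of the mitotic programme rose too, Foxm1 by 3.95 ± 0.26 and Mybl2 by 3.33 ± 0.23.

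Genes of DNA replication rose by less. Of the 58 listed, 56 were called higher, with a median of 2.28, and Gins3 and Orc1 did not pass. Asf1b, a histone chaperone at the replication fork, stood at 85.5, 70.8, 87.5 and 99.1 CPM in cycling cells, against 3.799, 4.27, 2.25 and 3.53 CPM in non-cycling cells, a log2 difference of 4.60 ± 0.18. 2810417H13Rik, the older symbol of the PCNA-binding factor Pclaf, stood at 416, 395, 283 and 261 CPM in cycling cells, against 19.8, 19.1, 12.3 and 31.2 CPM in non-cycling cells. For both genes every cycling value lay far above every non-cycling value.

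The sliding clamp Pcna itself was at 271, 62.0, 229 and 78.9 CPM in cycling cells, against 54.2, 15.3, 44.0 and 17.1 CPM in non-cycling cells, and rose by 2.23 ± 0.11 on the log2 scale. Here the A libraries stood above the B libraries in both states, the reverse of the order in Cdca8. The E-type cyclins of S phase entry, Ccne1 and Ccne2, rose by 2.04 ± 0.15 and 2.74 ± 0.17, the helicase loading factors Cdt1 and Cdc6 by 2.82 ± 0.23 and 2.45 ± 0.26, and E2f1 and E2f8 by 1.67 ± 0.13 and 4.41 ± 0.26.

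**Figure D3:**
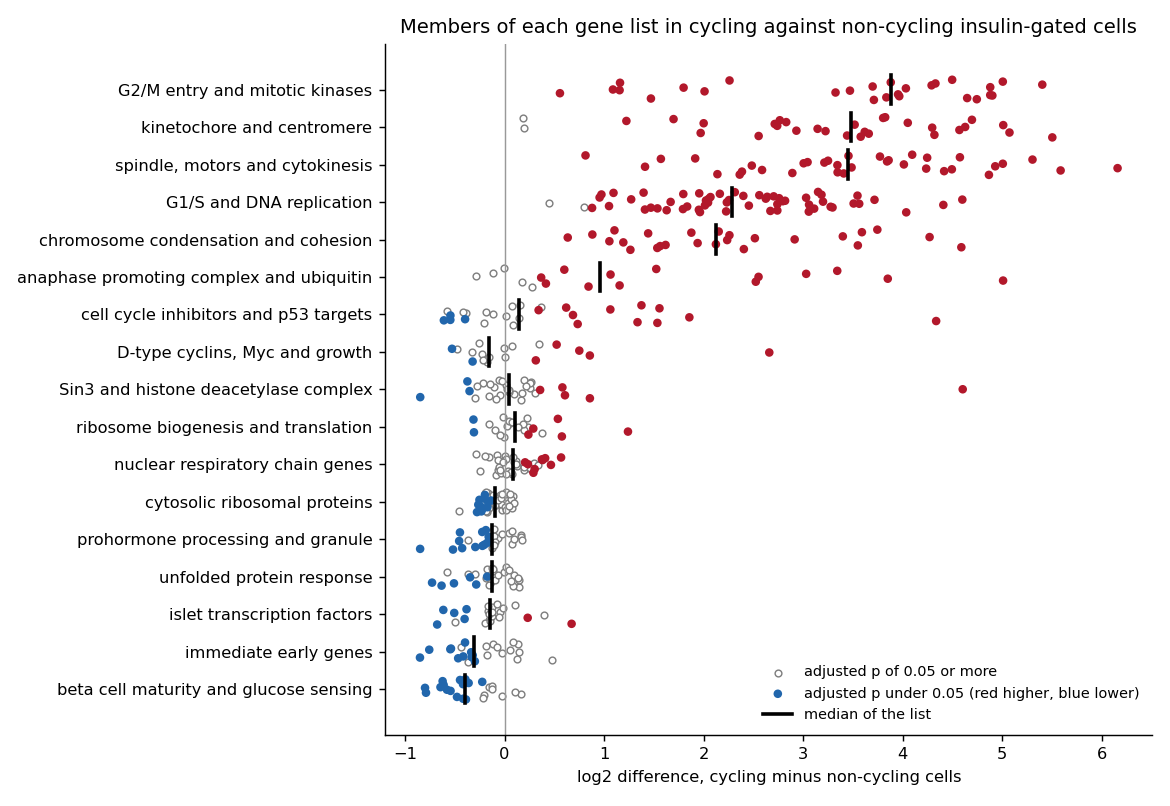
Log2 difference between cycling and non-cycling cells (horizontal axis) for every tested member of 17 gene lists (rows), with members past an adjusted p of 0.05 filled, red for higher and blue for lower, and the median of the list as a bar. Nearly all members of the 5 lists at the top rose, with medians from 2.12 to 3.88, and no called member of the lists for ribosomal proteins, granule, unfolded protein response, immediate early genes and beta cell maturity was higher.

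Chromosome structure genes rose as a list, with 25 of 25 called higher and a median of 2.12. The condensin subunits Smc2 and Ncapd2 differed by 3.75 ± 0.14 and 3.40 ± 0.13. Smc2 stood at 78.9, 141, 129 and 131 CPM in cycling cells, against 6.84, 7.79, 9.42 and 10.8 CPM in non-cycling cells. The list of the anaphase promoting complex and its partners was mixed, with 13 of 18 higher and a median of 0.95. The activator Cdc20, the substrate Pttg1 (securin) and Espl1 (separase), which securin holds back, rose, whereas the core subunits Cdc16, Cdc23, Cdc26, Anapc1 and Anapc13 did not pass. Of the core subunits that did, Anapc15 lost its call without any 1 of the libraries and Cdc27 without either mutant library.

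Histone genes that are switched on in S phase make transcripts without a poly(A) tail, which methods primed on poly(A) recover poorly. Of 22 such genes only 5 passed the filter on low counts. Hist1h2ap stood at 174, 17.5, 129 and 7.70 CPM in cycling cells, against 7.34, 0.503, 5.32 and 0.271 CPM in non-cycling cells, a log2 difference of 4.55 ± 0.19. Both A libraries stood far above both B libraries in each state, and the cycling cells were higher in every library. Hist1h1c, a linker histone, fell by 0.62 ± 0.08 on the log2 scale and Hist1h2bc by 0.63 ± 0.12.

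Several inhibitors of the cell cycle were higher in the cycling cells. Of 27 listed inhibitors and p53 targets tested, 11 were called higher and 4 lower, with a median of 0.15, against 10.8% higher and 8.67% lower over all genes. Without WT A the count of higher genes was 7. Cdkn2c, the p18 inhibitor of the D-cyclin kinases, was the most even of them, with 161, 171, 159 and 178 CPM in cycling cells, against 5.32, 14.1, 8.60 and 4.34 CPM in non-cycling cells. Its log2 difference was 4.34 ± 0.17 (edgeR adjusted p = 2.38e-15), and the groups stood far apart. Cdkn1a, the p21 inhibitor and p53 target, stood at 62.0, 209, 123 and 90.4 CPM in cycling cells, against 23.3, 83.5, 36.9 and 24.9 CPM in non-cycling cells. It was higher in all 4 libraries, by 1.54 ± 0.12 on the log2 scale (edgeR adjusted p = 2.90e-10), although the groups overlapped between libraries.

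The p19 inhibitor Cdkn2d rose by 1.56 ± 0.16, and the retinoblastoma family members Rb1 and Rbl1 by 1.06 ± 0.13 and 1.86 ± 0.17. Rbl2, the third of the family, stood at 15.7, 13.9, 31.0 and 14.4 CPM in cycling cells, against 8.36, 16.8, 24.6 and 18.4 CPM in non-cycling cells, and did not pass. Cdkn2a, Phlda3 and Trp53 were called higher over all libraries, by 1.38, 1.34 and 0.62, but each lost the call without WT A and without 1 mutant library. Cdkn1b was called higher by 0.34 and lost the call without mutant A, WT A or WT B. The antiproliferative gene Btg2 fell by 0.54 ± 0.07 and the stress gene Sesn2 by 0.61 ± 0.15.

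Of 19 D-type cyclin, Myc and growth genes tested, 5 were called higher and 2 lower, with a median of -0.15, against 10.8% higher and 8.67% lower over all genes. With matched depth 3 were higher and 3 lower, and without WT A 3 were higher. Cyclin D2 (Ccnd2), the main D-type cyclin in these cells, stood at 1666, 1381, 1147 and 1357 CPM in cycling cells, against 1749, 1233, 901 and 1667 CPM in non-cycling cells, a log2 difference of 0.01 ± 0.07. Its values were higher in cycling cells in mutant B and WT A and lower in mutant A and WT B. Cdk2, the kinase that acts with cyclins E and A, rose by 2.66 ± 0.23. It stood at 38.5, 18.2, 32.6 and 21.2 CPM in cycling cells, against 4.56, 3.77, 3.89 and 4.88 CPM in non-cycling cells. Cdk4 rose by 0.31 ± 0.08, and Myc, at 41.1, 146, 119 and 14.4 CPM in cycling cells against 20.01, 132, 76.4 and 27.1 CPM in non-cycling cells, did not pass. Ccnd3 lost its call without WT A, E2f5 without WT B and E2f3 without mutant A or either WT library, and Irs2, which fell, without mutant B. Max, the partner of Myc, fell by 0.53 ± 0.10.

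The Sin3 complex is recruited by Mxd proteins, which compete with Myc for Max. In its list 5 of 31 genes were called higher and 3 lower, with a median of 0.04, against 10.8% higher and 8.67% lower over all genes. Without mutant A only 1 was lower, since Kdm5b and Mxd1 lost their calls. Mxd3 stood at 37.2, 49.6, 51.9 and 42.3 CPM in cycling cells, against 1.27, 2.26, 2.66 and 0.814 CPM in non-cycling cells, a log2 difference of 4.60 ± 0.23 (edgeR adjusted p = 1.82e-13). Its relative Mxd4 went the other way, with 67.2, 104, 146 and 57.7 CPM in cycling cells, against 146, 167, 233 and 107 CPM in non-cycling cells, and fell by 0.85 ± 0.10 on the log2 scale. The 2 relatives thus changed in opposite directions in every library. The histone chaperones Rbbp4 and Rbbp7, which also serve chromatin assembly, rose by 0.58 ± 0.07 and 0.61 ± 0.08. Sin3a and the deacetylases Hdac1 and Hdac2 did not pass.

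Genes of beta cell maturity were lower in the cycling cells. Of 23 tested, 15 were called lower and none higher, with a median log2 difference of -0.39, against 8.67% lower and a median of -0.04 over all genes. The size was modest: the largest fall was 0.80. G6pc2, the islet glucose-6-phosphatase, stood at 688, 359, 806 and 393 CPM in cycling cells, against 978, 712, 1461 and 629.7 CPM in non-cycling cells. It was lower in each library, by 0.79 ± 0.06 on the log2 scale (edgeR adjusted p = 1.13e-09), although WT A cycling cells lay above the non-cycling cells of both B libraries. Slc2a2, the glucose transporter GLUT2, stood at 432, 487, 529 and 549 CPM in cycling cells, against 645, 810.0, 713 and 851 CPM in non-cycling cells, and fell by 0.62 ± 0.06 without overlap between the groups.

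Nnat, which aids insulin processing in the endoplasmic reticulum, stood at 1645, 1831, 4616 and 1112 CPM in cycling cells, against 2288, 2743, 6467 and 1572 CPM in non-cycling cells, and fell by 0.54 ± 0.04. The incretin receptor gene Gipr fell by 0.80 ± 0.18, the fatty acid receptor gene Ffar1 by 0.61 ± 0.08 and the channel gene Abcc8 by 0.39 ± 0.09. Ucn3, a late mark of maturity, was uneven, with 387, 86.8, 101 and 982 CPM in cycling cells, against 474, 252, 212 and 964 CPM in non-cycling cells. It was called lower by 0.64 ± 0.14, was not lower in WT B, and lost its call without WT A. Kcnj11, Trpm5 and Npy also lost theirs without at least 1 library. The amylin gene Iapp, at 26006, 33513, 24797 and 38523 CPM in cycling cells, against 28068, 29616, 25134 and 39366 CPM in non-cycling cells, did not pass, and neither did the zinc transporter gene Slc30a8.

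Depth was matched for this list. With non-cycling cells drawn to the same total counts as the cycling cells of their library, 14 of the 23 genes were called lower and none higher, and G6pc2, Slc2a2 and Nnat fell by 0.85, 0.61 and 0.58. CPM are shares of a total, of which the division genes take more in cycling cells, so these falls are read against the median of all genes, -0.04 on the log2 scale.

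**Figure D4:**
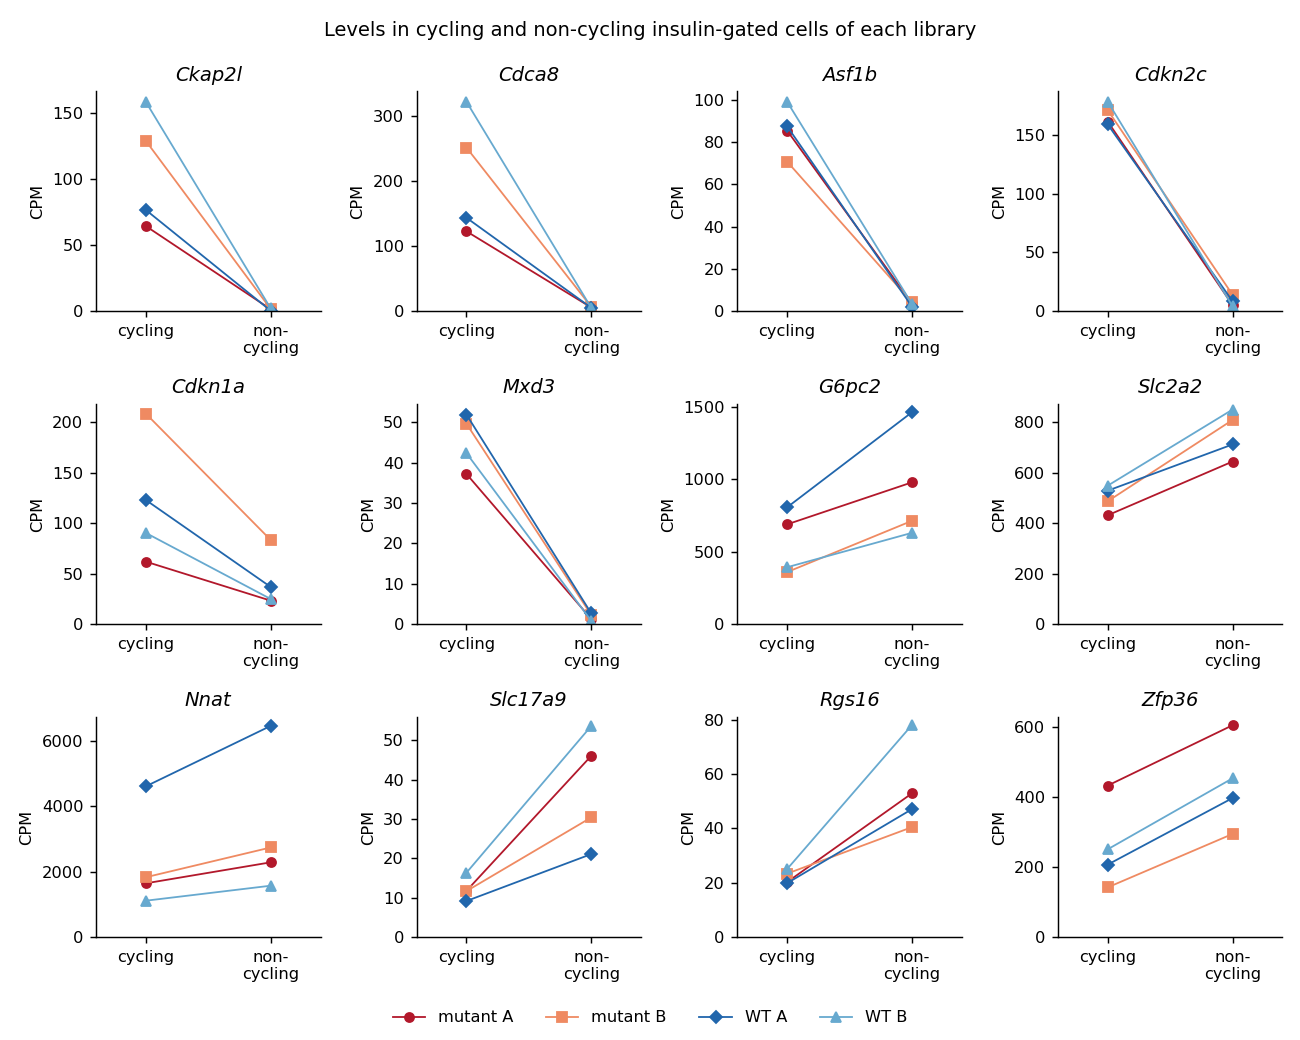
Levels in CPM (vertical axes, from 0) of 12 genes in cycling and non-cycling insulin-gated cells, 1 line per library. Ckap2l, Cdca8, Asf1b, Cdkn2c, Cdkn1a and Mxd3 were higher in the cycling cells of every library, and G6pc2, Slc2a2, Nnat, Slc17a9, Rgs16 and Zfp36 were lower in those of every library.

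The secretory machinery fell in part. Of 27 genes of prohormone processing and the granule, 12 were called lower and none higher, with a median of -0.12, against 8.67% lower over all genes, and without WT A the count was 7. Rab3a, a GTPase of granule exocytosis, stood at 64.6, 101, 132 and 103 CPM in cycling cells, against 118, 194, 236 and 158 CPM in non-cycling cells, and fell by 0.85 ± 0.09. Syt13, a member of the synaptotagmin family, fell by 0.45 ± 0.07. The falls of the granins Chga and Chgb and of the convertase Pcsk2 were small, 0.16, 0.20 and 0.19, and each lost its call without 1 library, Chga and Chgb without mutant A and Pcsk2 without WT A. The convertase Pcsk1 did not pass.

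Of 23 islet transcription factors 5 were called lower and 2 higher, with a median of -0.15, against 8.67% lower and 10.8% higher over all genes. Without WT A the counts were 2 and 0, and with matched depth 2 and 2. Nkx6-1, a factor that keeps beta cell identity, stood at 465, 344, 608 and 356 CPM in cycling cells, against 583, 468, 767 and 463 CPM in non-cycling cells, and fell by 0.40 ± 0.06 (edgeR adjusted p = 2.51e-05). It was lower in every library. Pdx1, Neurod1, Nkx2-2 and Isl1 did not pass. Insm1 and Nfib were called higher, by 0.23 and 0.67, and both lost the call without WT A.

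The unfolded protein response gave 6 of 27 genes called lower and none higher, with a median of -0.13, against 8.67% lower and a median of -0.04 over all genes. Xbp1, its spliced transcription factor, fell by 0.63 ± 0.09 and Ppp1r15a, which restores translation, by 0.73 ± 0.08. Ppp1r15a stood at 153, 116, 149 and 171 CPM in cycling cells, against 234, 200.1, 209 and 326 CPM in non-cycling cells. The chaperone genes Hspa5 and Hyou1 fell by 0.17 and 0.28 and lost their calls without WT A and at least 1 other library.

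Immediate early genes, which respond within minutes to stimuli and also to tissue dissociation, gave 11 of 24 called lower and none higher, with a median of -0.31, against 8.67% lower over all genes. Zfp36, which destabilises transcripts, stood at 432, 142, 206 and 250.1 CPM in cycling cells, against 604, 294, 396 and 453 CPM in non-cycling cells, and fell by 0.85 ± 0.08 (edgeR adjusted p = 7.48e-09). Fos fell by 0.32 ± 0.07, Egr1 by 0.33 ± 0.07 and Ier2 by 0.47 ± 0.09. The response of these genes to handling was not tested. Median mitochondrial shares stood at 3.15%, 9.03%, 5.26% and 6.17% in cycling cells, against 3.46%, 9.98%, 5.34% and 6.74% in non-cycling cells, after a limit on that share had been used to choose cells.

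Outside the lists, the genes named by the size of their fall were of low to moderate level. They had to be called, have the same sign in all 4 libraries and hold at least 20 counts in each library in non-cycling cells, and predicted genes were left out. Slc17a9, the vesicular nucleotide transporter that loads ATP into granules, stood at 11.7, 11.7, 9.15 and 16.4 CPM in cycling cells, against 46.1, 30.4, 21.1 and 53.7 CPM in non-cycling cells. The groups did not overlap, and the fall was 1.62 ± 0.19 on the log2 scale (edgeR adjusted p = 3.89e-07). Rgs16, a regulator of G protein signalling, stood at 20.2, 23.4, 19.8 and 25.01 CPM in cycling cells, against 52.9, 40.5, 47.1 and 78.1 CPM in non-cycling cells, and fell by 1.30 ± 0.15. With matched depth these falls were 1.77 and 1.16.

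Col6a3, a collagen chain, stood at 50.2, 32.1, 66.6 and 94.3 CPM in cycling cells, against 88.9, 93.8, 126 and 181 CPM in non-cycling cells, and fell by 1.05 ± 0.11. Zfp420 had the largest fall under these conditions, 1.66 ± 0.32, at 0.652, 6.57, 2.54 and 4.81 CPM in cycling cells, against 5.32, 15.1, 11.5 and 11.1 CPM in non-cycling cells, and in mutant A its cycling value came from 1 count. The other genes among the 12 largest falls under the same conditions were Grik5, Zfr2, Oacyl, Park2, Rab36, Pex6, C77080 and Sppl2b, with falls from 1.01 to 1.23. Zfr2 lost its call without mutant A, mutant B or WT B, and Oacyl without WT A or WT B.

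Markers of other cells were checked in the same sums. Endothelial markers summed to 33.9, 27.7, 17.8 and 23.1 CPM in cycling cells, against 80.8, 27.2, 20.3 and 29.3 CPM in non-cycling cells, and none of the 4 tested was called. Ductal markers summed to 153, 140.1, 117 and 148 CPM in cycling cells, against 194, 123, 140 and 174 CPM in non-cycling cells, and none of 4 was called. The mesenchymal list summed to 290.3, 234, 107 and 105 CPM in cycling cells, against 243, 177, 149.7 and 104 CPM in non-cycling cells. Of its 7 tested genes only Rgs5, a pericyte gene, was called higher, by 1.348 ± 0.19, and with an insulin gate at 3% it was higher by 0.57 and not called.

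Haemoglobin genes stood apart. All 5 erythroid genes were called higher, with Hbb-bs at 1143, 681, 6.61 and 875 CPM in cycling cells, against 22.0, 292, 6.55 and 59.7 CPM in non-cycling cells. In mutant A, mutant B and WT B a single cell gave 69.4%, 97.6% and 95.3% of the erythroid counts of the cycling cells. Cells rich in other markers were those with over 0.5% of their counts in endothelial, mesenchymal, ductal, acinar, immune, Schwann or erythroid markers. Alpha, delta and PP markers were not part of that limit. Without these cells Hbb-bs differed by -0.43 on the log2 scale (edgeR adjusted p = 0.128). A single cell likewise gave 93.6% of the acinar counts in the cycling cells of WT B. Alpha cell markers summed to 1069, 1337, 951 and 2021 CPM in cycling cells, against 1038, 1437, 1054 and 2158 CPM in non-cycling cells. Gcg alone gave 510, 582, 422 and 1503 CPM of this sum in cycling cells. The alpha, delta and PP sums hold Gcg, Sst and Ppy, which the rule kept under its limits, so they do not check the label. Of the markers of immune and Schwann cells that could be tested, 2 each, none was called. Delta cell markers summed to 251, 803, 293 and 433 CPM in cycling cells, against 233, 752, 313 and 561 CPM in non-cycling cells. The PP cell markers Ppy and Pyy summed to 1079, 4211, 5852 and 922 CPM in cycling cells, against 1203, 3966, 6165 and 1244 CPM in non-cycling cells. Cycling cells with over 0.5% of their counts in these PP markers numbered 6, 32, 49 and 2. Pyy fell by 0.19 and lost its call without mutant A, WT A or WT B.

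Cycling cells were not uniform among themselves. The replication list gave a median of 29.97%, 22.7%, 26.3% and 17.9% of a cell's counts over the replication and mitotic lists together, and single cells ran from 0% to 62.3%. The mitotic lists hold abundant tubulin genes, so a share of 50% does not mark equal numbers of replicating and mitotic cells. In WT B 25% of cells lay under 7.13% and another 25% over 38.1%, whereas mutant B was the narrowest, with 14.8% and 31.5% at those points. The share describes each library and was not tested.

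**Figure D5:**
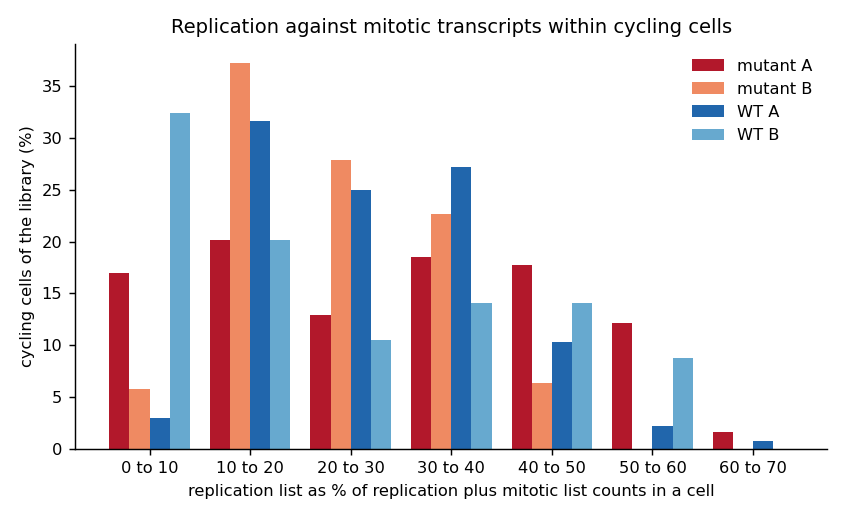
Percentage of the cycling cells of each library (vertical axis) by the share of replication list counts among replication and mitotic list counts in a cell (horizontal axis). The fullest range was under 10% in WT B, with 37 of 114 cells, and 10% to 20% in the others, with 25 of 124 cells in mutant A, 64 of 172 in mutant B and 43 of 136 in WT A.

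When the cycling cells of each library were parted at the median of that share, genes outside both lists took sides. Of the 8 genes of the rule, Rrm2 was higher in the replication-rich part, by 1.47, 1.83, 1.57 and 1.98 times, and Ube2c was lower there, at 0.0724, 0.209, 0.276 and 0.0761 times the level of the mitotic-rich part. Cdkn2c was lower in the replication-rich part, at 0.170, 0.623, 0.452 and 0.417 times, and Rbl1 was higher, by 1.56, 1.42, 1.43 and 1.68 times. Cdkn1a was near even in mutant A, mutant B and WT A, at 1.09, 1.27 and 1.05 times, and stood at 5.55 times in WT B, from 81 and 13 counts. G6pc2 was higher in the replication-rich part by 1.19, 1.64, 1.41 and 1.33 times and Slc2a2 by 1.66, 1.07, 1.43 and 1.604 times. These ratios are descriptions of 1 split per library and were not tested.

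The promoter elements shown above were counted over the lists, in windows of 250 bases before to 50 bases after the start. CHR letters occurred in 57.0% of 107 promoters of the mitotic lists and 18.9% of 53 promoters of the replication list, against 19.2% of all 32851 promoters. The strict E2F letters occurred in 4.67% of mitotic and 37.7% of replication promoters, against 2.26% of all. A CHR together with a CCAAT box occurred in 46.7% of mitotic and 17.0% of replication promoters, against 7.52% of all. Among 1140 promoters of genes called lower in cycling cells, CHR letters occurred in 11.7% and a CHR together with a CCAAT box in 3.51%, both under the shares of all promoters. CCAAT boxes occurred in 37.0% of them, against 37.4% of all, and E2F letters in 2.28%. The matches describe letters in a window and show neither binding nor use.

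The comparison of mutant with WT asks whether the Sin3A mutation changed how many beta cells cycle and what they express. Cycling cells made up 18.6% (15.8% to 21.8%) of gated cells in mutant A and 19.6% (17.0% to 22.4%) in mutant B, against 22.7% (19.4% to 26.2%) in WT A and 14.3% (11.98% to 17.0%) in WT B. The brackets are exact Clopper-Pearson 95% intervals for counting error only. The mean was 19.1% ± 0.67 in mutant and 18.5% ± 5.89 in WT libraries (SD, n = 2 each), a difference of 0.62 percentage points (exact permutation test over libraries, two-sided, p = 1). The smallest p that 2 against 2 libraries can give is 0.3333. The difference was -4.02 points within A and 5.25 within B, so the direction depended on the pair, and without WT B it was -3.55 points.

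Every cell was also thinned to 2000 counts, with cycling set at 2 or more thinned cycle counts, which left 546, 826, 556 and 704 gated cells deep enough. The shares were then 16.1%, 17.9%, 18.7% and 15.1%, and the difference was 0.14 points.

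Sin3a itself, the targeted gene, stood at 75.7 and 18.2 CPM in the cycling cells of mutant A and mutant B, against 27.0 and 40.4 CPM in those of WT A and WT B. Within A the mutant library thus had the higher level and within B the lower, from 116, 25, 53 and 42 counts. The sources used here do not say where the mutation lies and the counts come from 3′ ends, so the level does not check the genotype labels, which are used as they stand.

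Between the cycling cells of the genotypes, no gene of 10665 tested passed an adjusted p of 0.05 in either direction (0.0%) with edgeR, and none with DESeq2. At an unadjusted p under 0.05, edgeR gave 23 genes higher in mutant cells (0.216%) and 3 lower (0.0281%), and DESeq2 gave 29 and 3. Evenly spread p-values would place a fraction of 0.05 of the genes there. Far fewer were found, so the lack of calls does not show that the genotypes are alike. The median log2 difference of the replication list was 0.15 in the fit over all libraries, against 0.02 over all genes tested. Within A it was -0.11 and within B -0.03, against -0.15 and -0.10 over all genes tested. For the 4 mitotic lists the median in the fit lay between -0.16 and -0.07, with no member called. For the beta cell maturity list it was -0.05, with 10 genes higher and 13 lower in value.

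Gas1, which halts growth when cells leave the cycle, had the smallest unadjusted p among genes higher in mutant cells. It stood at 34.6 and 27.0 CPM in mutant A and mutant B, against 5.59 and 5.77 CPM in WT A and WT B, a log2 difference of 2.56 ± 0.65 (edgeR adjusted p = 1.00). The mutant values lay above both WT values, an order that naming by smallest p favours. Sparcl1, a matrix protein gene, stood at 30.7 and 19.7 CPM in mutant A and mutant B, against 7.12 and 2.89 CPM in WT A and WT B. Rgs5 stood at 86.1 and 47.4 CPM in mutant A and mutant B, against 24.4 and 10.6 CPM in WT A and WT B, and differed by 2.03 ± 0.63, or by 1.16 without cells rich in markers of other types.

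All 5 tested genes of the mesenchymal list were higher in value in mutant cycling cells, with a median log2 difference of 1.30. The list summed to 290.3 and 234 CPM in the cycling cells of mutant A and mutant B, with none of its 9 genes at 0, against 107 and 105 CPM in those of WT A and WT B. Rgs5 is itself a member of this list. A single cell gave 31.0% and 12.5% of the list's counts in the cycling cells of mutant A and mutant B. In those of WT A and WT B a single cell gave 31.8% and 4.59%. The part of mesenchymal transcripts in the differences of Gas1, Sparcl1 and Rgs5 was not tested. Spink13 stood at 7.83 and 47.4 CPM in mutant A and mutant B, against 3.05 and 1.92 CPM in WT A and WT B, and Kitl, the ligand of the Kit receptor, at 13.05 and 8.03 CPM against 1.02 and 1.92 CPM. Both were higher in each mutant library than in either WT library, and neither passed after adjustment. They were named by their small p, which favours such an order, and the share of all genes with it was not counted.

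On the lower side, Fahd1, a mitochondrial acylpyruvase, stood at 3.91 and 3.65 CPM in mutant A and mutant B, against 14.7 and 15.4 CPM in WT A and WT B, a log2 difference of -1.83 ± 0.78 (edgeR adjusted p = 1.00). Ctrb1, an acinar enzyme gene, differed by -4.06, or by -0.54 without WT B. The remaining genes named by the smallest p were Tmsb15b1, Rasa3 and Dagla, at differences of -1.79, -1.497 and -1.23.

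Whether the difference between cycling and non-cycling cells itself depended on genotype was tested as an interaction. Of 14474 genes, none passed with edgeR or with DESeq2 in either direction. At an unadjusted p under 0.05 edgeR gave 203 positive (1.4%) and 255 negative (1.76%) and DESeq2 25 and 25. These too were fewer than a fraction of 0.05 of the genes. Ska3, a kinetochore gene, had a smaller difference in mutant libraries, with an interaction of -1.94 ± 0.54 on the log2 scale (edgeR adjusted p = 1.00). It stood at 22.2 and 25.5 CPM in the cycling cells of mutant A and mutant B, against 7.34 and 4.53 CPM in their non-cycling cells, and at 23.4 and 37.5 CPM in the cycling cells of WT A and WT B, against 2.25 and 1.36 CPM in their non-cycling cells. Ect2, which directs cytokinesis, followed the same pattern with an interaction of -1.28 ± 0.36. The other genes of smallest p were Ctrb1, Spred1 and AI597479, at -1.62, -1.99 and -1.54, and Rnase1, Jph4, Hmox1 and RP23-330G24.3, at 2.00, 1.43, 1.67 and 1.10. Gas1 had an interaction of 1.84 ± 0.46, with 15.7 and 20.4 CPM in the non-cycling cells of mutant A and mutant B and 10.4 and 14.4 CPM in those of WT A and WT B.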

How the data were processed

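Each of the 4 libraries came as a deposited table of whole-number counts per gene and cell barcode, made by the authors from inDrop reads. Per the submitters' processing notes the builds were GRCm38 and GRCh38. The aligner, counter and barcode filter: not given in the sources used here. Mouse features were kept (38457 of 38459). Of the 6566 cells kept, insulin-gated cells were parted by counts over 8 cycle genes, and Scrublet (scanpy 1.11.5) marked doublets. Counts were summed per library and state and tested with edgeR 4.0.16 (quasi-likelihood, TMM scaling, filterByExpr with a minimum count of 10) and Benjamini-Hochberg adjustment. Cycling against non-cycling used the library as a block, since both sums come from the same library. Mutant against WT used the cycling sums only, and the interaction all 8 sums. The cycle, hormone and mitochondrial genes of the rule were not tested. DESeq2 1.42.0 was an alternative. The count tests were checked on simulated data. Named genes were the 12 largest called differences in each direction with the same sign in all 4 libraries and at least 20 counts per library in the higher state, the 2 members of smallest p in each list, and, for genotype and interaction, the 5 smallest p in each direction, leaving out predicted genes; the other genes named from the lists were chosen after their values were seen. The members and gene lists were chosen with earlier results of these data known. Library depth ran from 9282495 to 12835199 counts, and intervals cover counting error only.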

Additional observations from a re-analysis of the deposited data

Results flagged for a closer look

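Of the 93 genes named for any comparison, 9 had a cycling effect that ran one way in every mutant library and the other way in every WT library. No interaction passed with edgeR, and several of these genes were named for their interaction, so the pattern was partly chosen. The share of all tested genes with such a pattern was not counted, so the 9 are not shown to exceed it. Ctrb1, an acinar enzyme gene, had log2 differences between cycling and non-cycling cells of -0.60 and -0.91 in mutant A and mutant B, against 0.48 and 0.83 in WT A and WT B, so that the genotype means differed by -1.41. Its edgeR interaction was -1.62 (adjusted p = 0.381), and 1 cell gave 93.6% of the acinar counts in the cycling cells of WT B. Rbp4, a delta cell marker, had log2 differences of 0.14 and 0.21 in mutant A and mutant B, against -0.10 and -0.45 in WT A and WT B, and its genotype means differed by 0.45.

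Gas1 had differences of 1.10 and 0.39 in mutant A and mutant B, against -0.84 and -1.20 in WT A and WT B, and its genotype means differed by 1.77. For Kitl the genotype means differed by 2.37, for Hmox1 by 1.396, for RP23-330G24.3 by 1.09 and for Spink13 by 0.93, each with cycling cells higher in both mutant libraries and lower in both WT libraries. For Spred1 they differed by -1.78 and for AI597479 by -1.47, each with cycling cells lower in both mutant libraries and higher in both WT libraries.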

How the results depend on the processing

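DESeq2 called 879 genes higher and 625 lower in cycling cells, a filter-free fit called 2114 lower, and a fit with no replicate block, which ignores that both states come from 1 library, called 311 higher and 3 lower. Leaving out 1 library gave 998 to 1220 higher and 624 to 917 lower. For mutant against WT, leaving out 1 library gave 0 to 5 genes higher and 0 to 3 lower, with Ctrb1 and Pnliprp1 lower without mutant A or WT A and haemoglobin genes higher without WT B. With no filter 1 gene was higher and 3 lower. The title number as a replicate block called 0 genes in either direction. With 1 mutant and 1 WT library per number, such a block cannot change the difference in share of 0.62 points, so it is no check of that difference. Samples with the same number had deviations correlated at 0.129 over 6208 genes in 2 pairs, so the numbers were not shown to pair them. The interaction called 2 genes with no filter, 1 after thinning, 1 with an insulin gate at 3%, and 1 to 9 when 1 library was left out. The difference in the share of cycling cells ran from -3.55 to 4.78 points over the libraries left out and turned negative without WT B.

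Of 1138 single-gene values for the cycling comparison, 1045 kept direction and side of the threshold, 61 lost the call, 14 gained it and 18 reversed, each of the 18 for a marker of another cell type. Without cells rich in other markers Plvap was at 0.017, Ctrb1 at -0.32 and Hbb-bs at -0.43. With no filter C1qa was at -0.024, Ptprc at -0.063 and Ttr at -0.071. After thinning Col1a1 was at 0.10, Ttr at -0.038, Ctrb1 at -2.15 and the Ctrb1 interaction at 1.78. Col1a1 was at 0.0092 with the 3% gate, Ttr at -0.044 with a mitochondrial limit of 10%, and Ctrb1 at -0.042 with DESeq2 and -0.20 with matched depth. Over the libraries left out, Plvap ran from -0.68 to 0.11, Ctrb1 from -0.35 to 0.64, C1qa from -0.076 to 0.30, Ttr from -0.024 to 0.089 and Rbp4 from -0.19 to 0.055. The cause was not tested.

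Only 2 libraries a genotype limit every genotype comparison. Cycling cells of all phases were summed, and they were chosen by counts that rise with depth.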

Other observations

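Genes of protein synthesis and respiration moved little between the states. Of 51 cytosolic ribosomal protein genes tested, 12 were called lower in cycling cells and none higher, with a median log2 difference of -0.10, against 8.67% lower and a median of -0.04 over all genes. Without mutant A, WT A or WT B the count was 4, 7 or 6. Rpl5 and Rpl30 fell by 0.25 ± 0.05 and 0.24 ± 0.05. The elongation factor gene Eef1a1 fell by 0.31 ± 0.05, at 1925, 1905, 3210.3 and 1477 CPM in cycling cells of mutant A, mutant B, WT A and WT B, against 2183, 2211, 3762 and 2068 CPM in non-cycling cells.

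Ribosome biogenesis went the other way in part, with 5 of 22 genes higher and 2 lower, against 10.8% higher and 8.67% lower over all genes. Without WT A 3 were higher. Nop56, a core protein of small nucleolar particles, stood at 58.1, 21.9, 45.8 and 26.0 CPM in cycling cells, against 25.3, 9.30, 17.6 and 10.6 CPM in non-cycling cells, and rose by 1.24 ± 0.16 (edgeR adjusted p = 1.91e-06). It was higher in every library. Odc1, the first enzyme of polyamine synthesis, was called higher by 0.24 but lost the call without any 1 library.

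Of 38 nuclear genes of the respiratory chain, 9 were called higher and none lower, with a median of 0.09, against 10.8% higher over all genes. The count was 5 without mutant B or WT B, 3 without WT A, 5 with matched depth and 4 with DESeq2. Atp5g3, a subunit of the ATP synthase ring, stood at 243, 828, 377 and 370.4 CPM in cycling cells, against 193, 498, 283 and 268 CPM in non-cycling cells, and rose by 0.47 ± 0.07. Of 18 genes of glycolysis and genes normally silent in beta cells, only Aldoa was called, lower by 0.46, and it lost the call without mutant A or WT B. With matched depth 2 of the 18 were higher and 1 lower.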
